A study of Mus musculus with 18 samples.

Results

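The 31 genes described here encode enzymes of cholesterol synthesis, enzymes of fatty acid synthesis, and the regulators that set the transcription of both pathways. They were taken by gene symbol from a written list, and all 31 were found among the 18922 genes of the deposited tables. Expression was measured in polyadenylated RNA from mouse brain tissue. Both genotypes were on the C57Bl6 background and male, 8 to 10 weeks old, and all mice received a photothrombotic stroke, in which 50 mg/kg of the dye Rose Bengal and laser light of 525 nm at 125 mW close the vessels under a 3 mm field of cortex. Tissue was taken 7 days later. The groups were the infarct core, the peri-infarct tissue and the contralateral tissue of Trem2 knockout mice (KO), and the same 3 regions of wild-type mice (WT), with 3 libraries in each of the 6 groups. No group without a lesion was analysed, so contralateral tissue came from lesioned mice throughout. The labels do not say which part of Trem2 was deleted, nor whether a library was 1 animal. P-values therefore measure only the spread between these libraries, which may be partly technical.

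Cholesterol is made in the brain itself, because lipoproteins of the blood do not cross the blood-brain barrier, and its main users are the myelin of oligodendrocytes and the membranes of neurons, which astrocytes also supply. Synthesis starts from acetyl-CoA, passes through mevalonate and isoprenoid diphosphates to squalene, and ends in a series of sterol conversions. When sterols in the endoplasmic reticulum are low, Scap carries the SREBP transcription factors to the Golgi for cleavage, and the released factors switch on most of the genes listed here. When sterols are high, the Insig proteins hold Scap and the SREBPs back. Trem2, the gene removed in KO mice, is a lipid receptor of microglia and macrophages.

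SREBPs bind sterol regulatory elements in promoters of this pathway, often beside sites of the cofactors NF-Y (CCAAT box) and Sp1 (GC box). Promoters of 4 members are printed because these genes fell together in the lesion: an early enzyme (Hmgcs1), an isoprenoid enzyme (Idi1), the sterol sensor partner Insig1 and the regulator Srebf2. Each line gives the 250 bases before the RefSeq gene start (assembly GRCm38.p6, plus strand, 5′ to 3′), at chr13:119690101-119690350 for Hmgcs1, chr13:8885356-8885605 for Idi1, chr5:28071162-28071411 for Insig1 and chr15:82147019-82147268 for Srebf2. Capitals mark matches, on either strand, to the searched motifs: TCACNCCAC for the sterol regulatory element, CCAAT for the NF-Y site, GGGCGG for the GC box and CACGTG for the E box. No matches overlapped in these promoters.
Hmgcs1: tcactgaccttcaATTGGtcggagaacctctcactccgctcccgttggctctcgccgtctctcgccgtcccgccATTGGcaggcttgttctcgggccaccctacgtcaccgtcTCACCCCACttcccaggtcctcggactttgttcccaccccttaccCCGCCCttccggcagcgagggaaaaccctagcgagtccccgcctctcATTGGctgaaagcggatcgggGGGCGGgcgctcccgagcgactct
Idi1: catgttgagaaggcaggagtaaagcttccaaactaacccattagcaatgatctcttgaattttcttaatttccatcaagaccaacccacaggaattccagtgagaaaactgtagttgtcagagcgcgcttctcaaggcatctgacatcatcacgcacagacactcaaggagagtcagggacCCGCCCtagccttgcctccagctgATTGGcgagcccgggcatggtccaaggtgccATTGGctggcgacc
Insig1: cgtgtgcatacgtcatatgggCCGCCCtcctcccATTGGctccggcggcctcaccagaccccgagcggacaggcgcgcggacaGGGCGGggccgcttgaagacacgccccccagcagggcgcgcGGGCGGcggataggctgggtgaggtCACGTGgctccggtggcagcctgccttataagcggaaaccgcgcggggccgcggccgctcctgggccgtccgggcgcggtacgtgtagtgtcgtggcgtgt
Srebf2: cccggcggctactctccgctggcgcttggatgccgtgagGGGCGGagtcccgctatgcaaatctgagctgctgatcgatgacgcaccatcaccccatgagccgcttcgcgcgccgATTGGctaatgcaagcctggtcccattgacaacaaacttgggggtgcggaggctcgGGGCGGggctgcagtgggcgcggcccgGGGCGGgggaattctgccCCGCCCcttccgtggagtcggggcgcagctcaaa

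The Hmgcs1 window held the sterol regulatory element 137 to 129 bases before the start, with 3 CCAAT boxes and 2 GC boxes around it. The bases just after this RefSeq start were not found in a GENCODE transcript of Hmgcs1, whereas those of Idi1, Insig1 and Srebf2 were. The Idi1 window held 2 CCAAT boxes and 1 GC box, the Insig1 window 1 CCAAT box, 3 GC boxes and the E box, and the Srebf2 window 1 CCAAT box and 4 GC boxes. Of the 31 members 25 matched an entry of the RefSeq promoter table, and in the window from 250 bases before to 50 bases after the start, 21 of these 25 (84.0%) held a CCAAT box. The same letters stood in 41.1% of the 27025 promoters of the table. A GC box stood in 21 of 25 members (84.0%), against 38.2% of all promoters and 65.5% of the 12130 promoters whose genes were expressed enough to be tested. An E box stood in 5 of 25 (20.0%), against 8.09% of all promoters and 11.1% of those of tested genes. The sterol regulatory element stood in 1 of 25 (4.0%), against 1.44% and 1.37% in the same order. For the CCAAT box the share among promoters of tested genes was 42.6%. These shares describe letters in a fixed window, were not tested, and say nothing of the binding of a factor.

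Total counts ranged from 16993978 to 17691801 in 17 libraries, and the WT core library of replicate 3 held 18713770. That library stood apart: 15.5% of its counts fell on 10 genes, against 3.27% to 5.38% on the top 10 of each other library. The 6 excitatory neuron markers summed to 7.11 TPM there (a level scaled to transcript length and library), against 3551 and 3694 TPM in the other WT core libraries, and the neuronal markers Neurod6, Slc32a1 and Vip were at 0 in it. Oligodendrocyte markers summed to 550 TPM in that library, against 4992 and 6322 TPM in WT core replicates 1 and 2. Resting astrocyte markers summed to 128 TPM, against 2071 and 1730 TPM, and macrophage markers to 21960 TPM, against 6026 and 8242 TPM. In TPM WT core replicate 3 was also the lowest of all 18 libraries for 29 of the 31 members, the exceptions being Ebp and Dhcr7. In normalized counts it was not the lowest for Mvk, Mvd, Insig2, Srebf1 and Acly either. The share of all genes lowest in that library was not counted. Each comparison of the members is therefore given with all 18 libraries and again with 17, without that library. Removing it also narrowed the spread estimated jointly from all groups, so counts of calls changed in comparisons that do not contain it. Trem2 was measured at 13.3, 19.6 and 13.3 TPM in KO core, 6.75, 8.23 and 10.1 TPM in KO peri-infarct and 1.81, 2.47 and 0.9 TPM in KO contralateral tissue. In WT tissue it stood at 443, 514 and 1338 TPM in the core, 331, 233 and 307 TPM in the peri-infarct and 75.8, 56.0 and 74.0 TPM in the contralateral tissue, so KO and WT libraries did not overlap in any region. Other markers varied between libraries too. The 4 choroid plexus markers summed to 8770 TPM in KO contralateral replicate 2, against 17.7 and 121 TPM in replicates 1 and 3. In KO peri-infarct tissue they summed to 2052, 37.8 and 7577 TPM, and in WT libraries to at most 944 TPM. The 5 striatal neuron markers summed to 423 to 495 TPM in KO peri-infarct, against 109, 503 and 134 TPM in WT peri-infarct libraries. Their part in the levels of the members was not tested. In bulk tissue, fewer cells of a type and less RNA per cell cannot be told apart, and this holds for every value that follows.

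All 31 members were expressed in every library, with a lowest count of 78, and all passed the filter on low counts. On WT contralateral tissue the highest mean levels were 967 TPM for Scd2, the main stearoyl-CoA desaturase of brain, 229.9 TPM for Hmgcs1 and 180.4 TPM for Scd1. The lowest were 16.8 TPM for Stard4, 13.9 TPM for Hsd17b7 and 11.5 TPM for Lss. Mean levels of most members were ordered by region. In KO tissue the mean TPM was lowest in the core, intermediate in the peri-infarct and highest in the contralateral tissue for 25 of 31 members, the exceptions being Ebp, Srebf1, Scap, Acaca, Fasn and Scd2. In WT tissue 29 of 31 members had that order, with the exceptions Ebp and Srebf1, and the number was the same without core replicate 3. The order is of group means, and the share of all genes with it was not counted. The summed level of all 31 members averaged 1541 ± 160.2 TPM in KO core, 2452 ± 143 TPM in KO peri-infarct and 2709 ± 133 TPM in KO contralateral tissue (SD, n = 3 each). In WT tissue the sum was 2007, 1870 and 568 TPM in the 3 core libraries, and averaged 2312 ± 142 TPM in peri-infarct and 2860.0 ± 116 TPM in contralateral tissue.

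**Figure D1:**
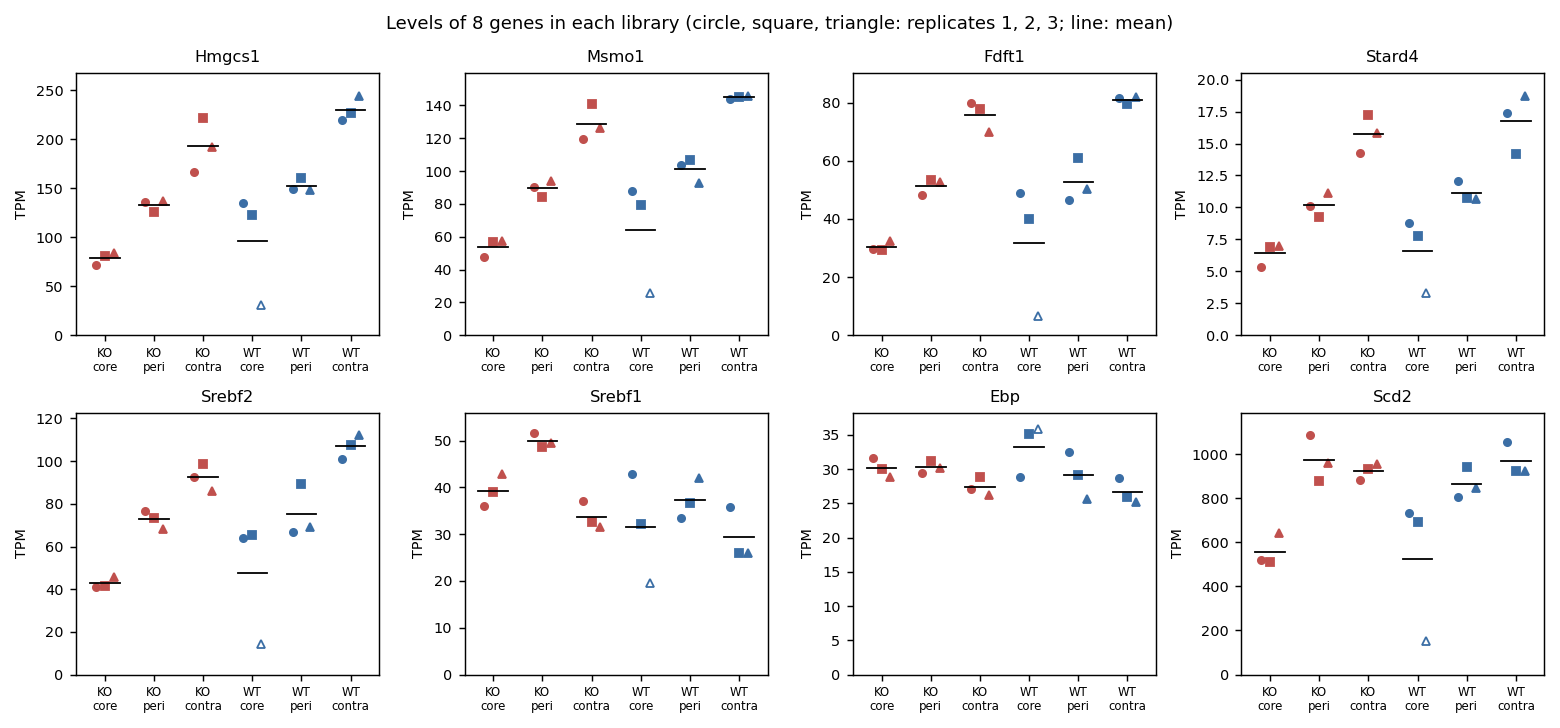
TPM of 8 members (y axes, from 0) in each library of the 6 groups (x axis; KO groups in red, WT groups in blue; symbols give the replicate, lines the mean, the open triangle WT core replicate 3). Hmgcs1, Msmo1, Fdft1, Stard4 and Srebf2 step down from contralateral to core tissue in both genotypes, Srebf1 and Ebp do not, and the KO core libraries of Scd2 lie between 508 and 641 TPM.

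Core against contralateral tissue was compared first, since it measures the pathway in the lesion itself. In KO mice 17 of 31 members fell and 0 rose with all libraries, where 3.31% of all tested genes were called lower and 19.7% higher. The median log2 fold change was -0.66 over the members and -0.013 over all tested genes. In WT mice 21 members fell and 2 rose, Ebp and Srebf1, where 11.5% of all genes were called lower and 29.1% higher, and the medians were -0.78 and -0.025. With 17 libraries 28 members fell and 2 rose in KO mice (27.8% and 29.6% of all genes), Mvk alone not being called, and 24 fell and 2 rose in WT mice (16.6% and 23.6% of all genes). The medians were then -0.67 in KO mice and -0.48 in WT mice, against -0.022 and -0.016 over all genes. The libraries did not overlap, with core lower, for 29 members in KO mice (31.5% of all genes) and 25 members in WT mice (25.8%). The WT count rests on the shared spread: in a fit of the 2 WT groups alone, which holds core replicate 3, it was 0, and of the 17 libraries leaving out WT core replicate 2 left 16 calls. In KO mice the count of 17 was 11 without KO core replicate 1 or 2.

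Most entry and mevalonate steps fell in both genotypes. With 17 libraries 6 of 7 were lower in KO core and 5 of 7 in WT core, with medians of -0.67 and -0.58, and with 18 libraries 5 and 6 were. Hmgcs1, which makes HMG-CoA from acetoacetyl-CoA, held 71.2, 80.9 and 83.3 TPM in KO core, 136, 125 and 137 TPM in KO peri-infarct and 166, 221 and 192 TPM in KO contralateral libraries. Its WT values were 134, 122 and 31.1 TPM in core, 149, 161 and 148 TPM in peri-infarct and 219.8, 226 and 244 TPM in contralateral libraries. No core library reached any contralateral library, and KO core lay below WT core replicates 1 and 2. Its log2 fold change in the core was -1.18 ± 0.092 (adjusted p = 7.22e-08) in KO mice and -0.69 ± 0.10 (adjusted p = 9.18e-05) in WT mice with 17 libraries, and -1.17 ± 0.25 (adjusted p = 0.00406) and -1.01 ± 0.25 (adjusted p = 0.00676) with 18 libraries in the same order. Idi1, the isomerase that makes dimethylallyl diphosphate, held 25.2, 27.5 and 32.6 TPM in KO core against 55.6, 77.0 and 70.3 TPM in KO contralateral libraries. In WT libraries Idi1 was at 36.8, 38.7 and 7.49 TPM in core against 68.2, 78.6 and 74.7 TPM in contralateral tissue. Fold changes of Idi1 were -1.13 ± 0.11 (adjusted p = 5.49e-07) in KO and -0.81 ± 0.12 (adjusted p = 9.36e-05) in WT mice with 17 libraries, and the core libraries again lay below all contralateral ones. Fdps, the farnesyl diphosphate synthase, was at 45.4, 47.6 and 55.8 TPM in KO core against 106, 119 and 103 TPM in KO contralateral libraries. In WT tissue Fdps was at 61.2, 65.5 and 23.8 TPM in core against 102, 106 and 113 TPM in contralateral libraries. With all 18 libraries it fell by 1.01 ± 0.17 (adjusted p = 0.000656) in KO mice and by 0.78 ± 0.17 (adjusted p = 0.00252) in WT mice. The 3 enzymes that convert mevalonate to isopentenyl diphosphate had smaller changes than Hmgcs1, Idi1 and Fdps. The mevalonate kinase Mvk was not called in either genotype, at -0.42 ± 0.18 (adjusted p = 0.0501) in KO and -0.24 ± 0.20 (adjusted p = 0.364) in WT mice with 17 libraries. Mvd, the decarboxylase, was called in KO mice (-0.67 ± 0.13, adjusted p = 0.000606) and not in WT mice (-0.36 ± 0.15, adjusted p = 0.0638) in that fit. Pmvk, the phosphomevalonate kinase, and Acat2, the thiolase that makes acetoacetyl-CoA, fell in both genotypes in that fit, Pmvk by 0.35 ± 0.079 (adjusted p = 0.0014) in KO mice and Acat2 by 0.60 ± 0.12 (adjusted p = 0.000711).

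Most squalene and sterol steps fell as well. With 17 libraries 10 of 11 were lower in KO core and 9 of 11 in WT core, with medians of -0.79 and -0.49, while Ebp was higher in both. Msmo1, a monooxygenase of sterol demethylation, held 47.5, 56.8 and 57.2 TPM in KO core, 90.5, 84.0 and 94.1 TPM in KO peri-infarct and 119, 141 and 126 TPM in KO contralateral libraries. For Msmo1 the WT libraries read 87.6, 79.5 and 26.0 TPM in core, 104, 107 and 92.6 TPM in peri-infarct and 144, 145 and 146 TPM in contralateral tissue. The 3 regions did not overlap in either genotype. Its core fold change was -1.17 ± 0.08 (adjusted p = 2.08e-08) in KO and -0.64 ± 0.089 (adjusted p = 4.24e-05) in WT mice with 17 libraries, the smallest p among the members in both. Fdft1, squalene synthase and the first enzyme committed to sterols, was at 29.6, 29.2 and 32.3 TPM in KO core and 79.9, 77.8 and 69.9 TPM in KO contralateral libraries. In WT tissue Fdft1 was at 48.8, 39.8 and 6.63 TPM in core and 81.4, 79.5 and 82.0 TPM in contralateral libraries. Core and contralateral levels were thus well apart, with changes of -1.18 ± 0.10 (adjusted p = 1.11e-07) in KO and -0.71 ± 0.11 (adjusted p = 0.000101) in WT mice. Sqle, the squalene epoxidase, was at 19.2, 21.2 and 23.3 TPM in KO core and 47.6, 54.1 and 45.7 TPM in KO contralateral libraries, a change of -1.09 ± 0.088 (adjusted p = 1.02e-07). In WT tissue Sqle was at 30.5, 31.1 and 5.77 TPM in core and 53.2, 50.0 and 54.7 TPM in contralateral libraries, a change of -0.62 ± 0.10 (adjusted p = 0.000152). Nsdhl, a sterol dehydrogenase of the demethylation complex, varied little between replicates, with 14.9, 15.4 and 14.9 TPM in KO core and 27.4, 27.3 and 23.6 TPM in KO contralateral libraries. For Nsdhl the WT values were 17.6, 16.8 and 8.59 TPM in core and 28.2, 24.9 and 27.7 TPM in contralateral libraries. With all 18 libraries it fell by 0.66 ± 0.10 (adjusted p = 0.000372) in KO and 0.58 ± 0.10 (adjusted p = 0.000628) in WT mice. Lss, Cyp51, Tm7sf2, Hsd17b7 and Sc5d, which close the ring and reshape it, also fell in both genotypes with 17 libraries, by 0.55 to 0.98 in KO mice and by 0.40 to 0.63 in WT mice. Dhcr7, which performs a late reduction on the way to cholesterol, was called in KO mice (-0.54 ± 0.09, adjusted p = 0.000119) and not in WT mice (-0.14 ± 0.10, adjusted p = 0.27). Ebp, the sterol isomerase, ran against the pathway, with 31.6, 30.1 and 28.8 TPM in KO core and 27.1, 28.9 and 26.1 TPM in KO contralateral libraries. In WT tissue Ebp was at 28.9, 35.1 and 35.9 TPM in core and 28.6, 25.9 and 25.2 TPM in contralateral libraries. These rises were small, 0.27 ± 0.10 (adjusted p = 0.0269) in KO and 0.42 ± 0.11 (adjusted p = 0.00558) in WT mice with 17 libraries, and with 18 libraries the KO change was not called (0.28 ± 0.19, adjusted p = 0.309).

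**Figure D2:**
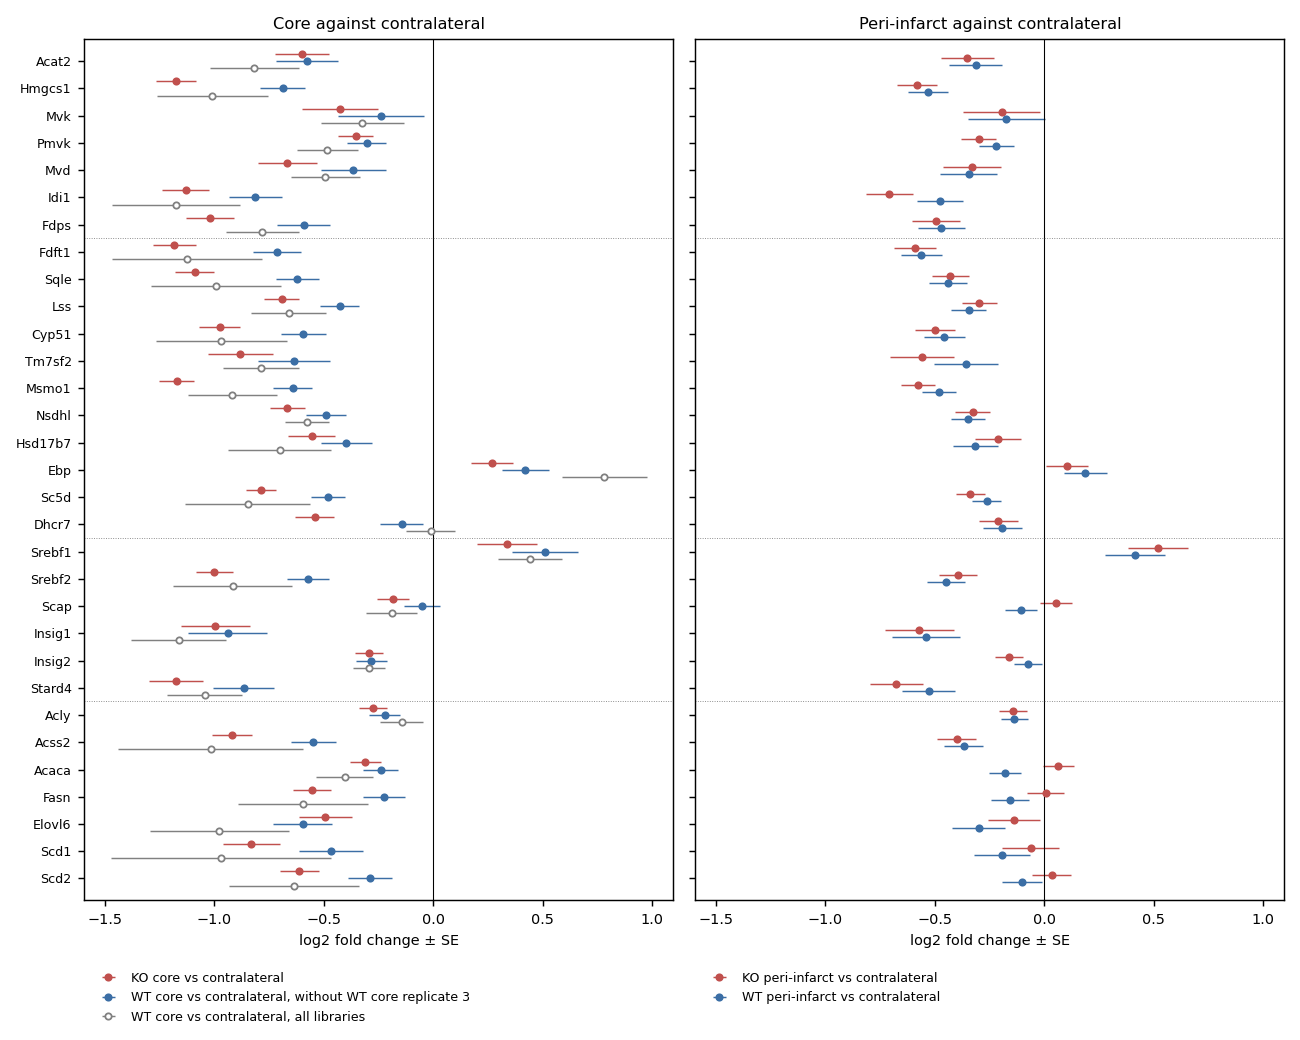
Log2 fold change ± SE of each member (rows, grouped by role between dotted lines) for core against contralateral tissue (left) and peri-infarct against contralateral tissue (right); KO in red, WT in blue, both fitted without WT core replicate 3, and WT core with all libraries in grey. In the core all rows but Ebp and Srebf1 lie left of 0 in both genotypes, and in the peri-infarct panel KO fatty acid enzymes lie between -0.40 (Acss2) and 0.065.

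The SREBP genes themselves went in opposite directions in the core. Srebf2, which encodes the SREBP most tied to cholesterol synthesis, was at 41.0, 41.5 and 45.9 TPM in KO core, 76.7, 73.3 and 68.4 TPM in KO peri-infarct and 92.8, 98.9 and 86.2 TPM in KO contralateral libraries. For Srebf2 the WT libraries read 63.9, 65.4 and 14.2 TPM in core, 67.0, 89.1 and 69.1 TPM in peri-infarct and 101, 108 and 112 TPM in contralateral tissue. It fell in the core by 1.00 ± 0.086 (adjusted p = 1.87e-07) in KO and 0.57 ± 0.10 (adjusted p = 0.000264) in WT mice with 17 libraries. Srebf1, which encodes the SREBPs most tied to fatty acid synthesis, was at 36.0, 39.0 and 42.8 TPM in KO core, 51.7, 48.5 and 49.5 TPM in KO peri-infarct and 37.2, 32.5 and 31.5 TPM in KO contralateral libraries. For Srebf1 the WT libraries read 42.8, 32.2 and 19.5 TPM in core, 33.4, 36.6 and 42.0 TPM in peri-infarct and 35.9, 26.0 and 26.1 TPM in contralateral tissue. Every KO peri-infarct library exceeded every KO contralateral library, whereas WT libraries overlapped between regions. In the core Srebf1 changed by 0.34 ± 0.14 (adjusted p = 0.0455) in KO and 0.51 ± 0.15 (adjusted p = 0.0144) in WT mice with 17 libraries, and with 18 libraries it was called in WT (0.44 ± 0.15, adjusted p = 0.0287) and not in KO mice (0.35 ± 0.15, adjusted p = 0.106). The ratio of the TPM of Srebf1 to that of Srebf2 averaged 0.917 ± 0.033 in KO core, 0.687 ± 0.033 in KO peri-infarct and 0.365 ± 0.036 in KO contralateral tissue (SD, n = 3 each). In WT tissue the ratio was 0.67, 0.492 and 1.38 in the 3 core libraries, and averaged 0.505 ± 0.098 in peri-infarct and 0.276 ± 0.068 in contralateral tissue.

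Of the proteins that gate SREBP transport, Insig1, itself an SREBP target, had the larger log2 fold changes and Insig2 the smaller. Insig1 was at 27.6, 32.9 and 36.0 TPM in KO core against 61.4, 78.5 and 69.4 TPM in KO contralateral libraries, and at 40.6, 29.1 and 11.96 TPM in WT core against 86.6, 60.6 and 76.2 TPM in WT contralateral libraries. The groups did not overlap in either genotype, and the changes were -0.99 ± 0.16 (adjusted p = 8.67e-05) in KO and -0.94 ± 0.18 (adjusted p = 0.000795) in WT mice with 17 libraries. Insig2 was at 35.9, 32.0 and 40.9 TPM in KO core against 48.0, 50.7 and 47.9 TPM in KO contralateral libraries, a fall of 0.29 ± 0.064 (adjusted p = 0.00116) in the same fit. In WT mice Insig2 was at 33.6, 36.9 and 21.1 TPM in core against 50.5, 46.8 and 46.0 TPM in contralateral libraries and fell by 0.28 ± 0.072 (adjusted p = 0.00584). The difference between the changes of the 2 genes was not tested. Scap, the escort, was called in KO core (-0.18 ± 0.073, adjusted p = 0.0431) and not in WT core (-0.051 ± 0.082, adjusted p = 0.652). Stard4, a sterol carrier between membranes and an SREBP target, was at 5.34, 6.88 and 7.01 TPM in KO core, 10.1, 9.27 and 11.1 TPM in KO peri-infarct and 14.2, 17.2 and 15.8 TPM in KO contralateral libraries. For Stard4 the WT libraries read 8.79, 7.78 and 3.27 TPM in core, 12.1, 10.8 and 10.6 TPM in peri-infarct and 17.4, 14.2 and 18.8 TPM in contralateral tissue. The 3 regions did not overlap in either genotype, and Stard4 had the smallest p of all members in the core of both genotypes with 18 libraries, at -1.17 ± 0.17 (adjusted p = 0.00032) in KO and -1.04 ± 0.17 (adjusted p = 0.000413) in WT mice.

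Fatty acid enzymes were called mainly without WT core replicate 3. With 17 libraries 7 of 7 were lower in KO core and 6 of 7 in WT core, with medians of -0.55 and -0.29, whereas with 18 libraries 0 and 2 were. Scd2 was at 522, 508 and 641 TPM in KO core, 1085, 879.6 and 961 TPM in KO peri-infarct and 881, 930.4 and 954 TPM in KO contralateral libraries. Its WT levels were 734, 691 and 152 TPM in core, 807, 941 and 845 TPM in peri-infarct and 1054, 924 and 924 TPM in contralateral libraries. The KO core libraries thus lay below all other KO libraries, while KO peri-infarct and contralateral libraries overlapped. Scd2 changed by -0.61 ± 0.09 (adjusted p = 4.04e-05) in KO and -0.29 ± 0.10 (adjusted p = 0.0342) in WT core. Its paralogue Scd1 was at 83.0, 86.3 and 117 TPM in KO core against 166, 189 and 197 TPM in KO contralateral libraries, and at 125, 110.0 and 8.08 TPM in WT core against 204, 157 and 181 TPM in WT contralateral libraries. Scd1 changed by -0.83 ± 0.13 (adjusted p = 6.67e-05) in KO and -0.47 ± 0.15 (adjusted p = 0.019) in WT core, and since the paralogues are alike in sequence the division of reads between them is uncertain. Fasn, the fatty acid synthase, was at 37.3, 41.2 and 49.6 TPM in KO core against 67.5, 70.5 and 65.9 TPM in KO contralateral libraries, and at 60.5, 53.7 and 11.0 TPM in WT core against 74.8, 73.0 and 75.1 TPM in WT contralateral libraries. Fasn was called in KO mice (-0.55 ± 0.086, adjusted p = 6.53e-05) and was the 1 enzyme of the group not called in WT mice (-0.23 ± 0.10, adjusted p = 0.0762). Acss2, which makes acetyl-CoA from acetate, fell by 0.92 ± 0.091 (adjusted p = 7.48e-07) in KO and 0.55 ± 0.10 (adjusted p = 0.00059) in WT mice. The citrate lyase Acly fell by 0.28 ± 0.064 (adjusted p = 0.00177) and 0.22 ± 0.071 (adjusted p = 0.0225) in KO and WT mice, the acetyl-CoA carboxylase Acaca by 0.31 ± 0.072 (adjusted p = 0.00185) and 0.24 ± 0.08 (adjusted p = 0.027), and the elongase Elovl6 by 0.49 ± 0.12 (adjusted p = 0.00281) and 0.60 ± 0.14 (adjusted p = 0.00278).

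**Figure D3:**
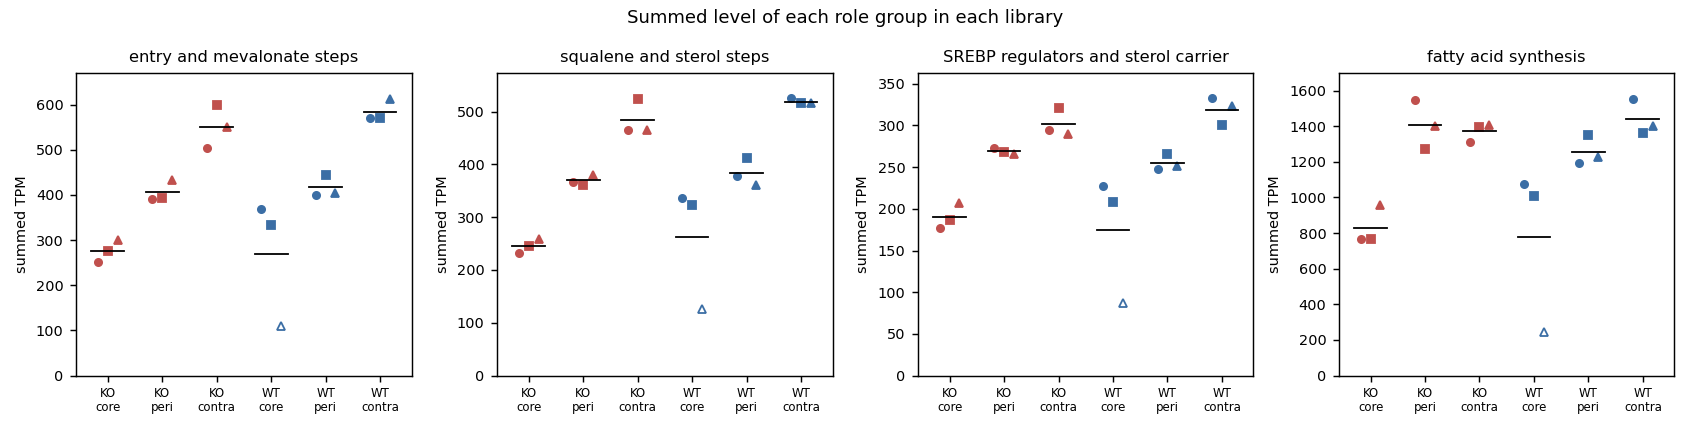
Summed TPM of the members of each role group (y axes, from 0) in each library of the 6 groups (x axis; KO in red, WT in blue; symbols give the replicate, lines the mean, the open triangle WT core replicate 3). The sums of sterol steps are 231 to 259 TPM in KO core and 464 to 524 TPM in KO contralateral tissue, while the fatty acid sums of KO peri-infarct tissue, 1275 to 1549 TPM, span those of KO contralateral tissue.

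Markers of some brain cell types moved with the regions. The 6 microglia markers summed to 3915 to 5218 TPM in KO core against 625 to 776 TPM in KO contralateral tissue, and to 4810.0 to 10539.8 TPM in WT core against 841 to 1014 TPM in WT contralateral tissue, and 6 of 6 were called higher in both genotypes with 17 libraries. The 6 excitatory neuron markers summed to 1862 to 2582 TPM in KO core against 3872 to 4763 TPM in KO contralateral tissue, with 6 of 6 called lower. In WT tissue they summed to 3551 and 3694 TPM in core replicates 1 and 2 against 3793 to 5060.2 TPM in contralateral tissue, with 0 of 6 called with 17 libraries. The 6 inhibitory neuron markers summed to 444 to 597 TPM in KO core against 1353 to 1581 TPM in KO contralateral tissue, with 4 of 6 called lower. In WT tissue they summed to 702 and 511 TPM in core replicates 1 and 2 against 1333 to 1527 TPM in contralateral tissue, with 5 of 6 called lower and a median log2 fold change of -1.12. Of the 8 oligodendrocyte markers 0 were called in either genotype in that comparison, and their sum was 4228 to 6392 TPM in KO core against 5823 to 7830 TPM in KO contralateral tissue, and 4992 and 6322 TPM in WT core replicates 1 and 2 against 7197 to 7772 TPM in WT contralateral tissue. The 7 resting astrocyte markers summed to 1557 to 1744 TPM in KO core against 1769 to 1846 TPM in KO contralateral tissue. In WT tissue they summed to 2071 and 1730 TPM in core replicates 1 and 2 against 1918 to 1985 TPM in contralateral tissue. In WT core replicate 3 the sums were 128 TPM for astrocyte and 550 TPM for oligodendrocyte markers. Excitatory and inhibitory neuron markers summed to 7.11 and 1.8 TPM in that library, and its microglia sum was the 10539.8 TPM given above. The part of the marker shifts in the levels of the members was not tested.

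**Figure D4:**
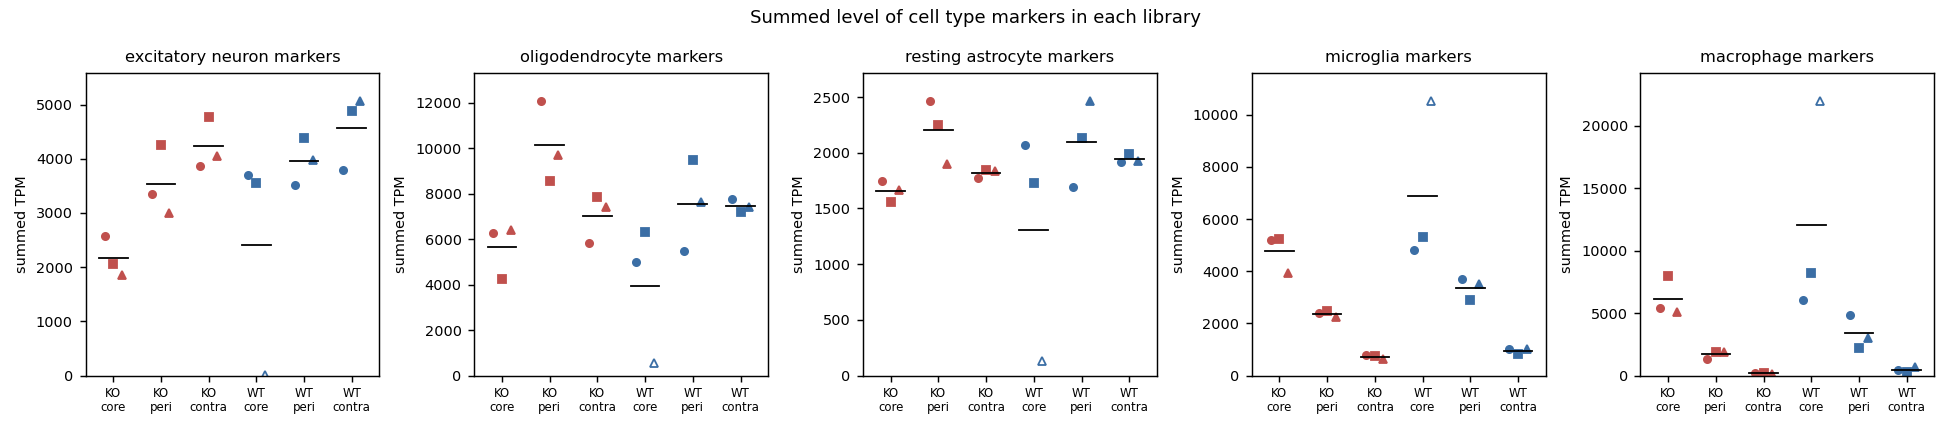
Summed TPM of the marker genes of 5 cell types (y axes, from 0) in each library of the 6 groups (x axis; KO in red, WT in blue; symbols give the replicate, lines the mean, the open triangle WT core replicate 3). Microglia and macrophage markers are highest in the core, and excitatory neuron markers are at 1862 to 2582 TPM in KO core and at 3551 and 3694 TPM in WT core replicates 1 and 2. Replicate 3 of WT core is near 0 for the neuronal markers, at 550 TPM for oligodendrocyte and at 128 TPM for resting astrocyte markers.

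Peri-infarct against contralateral tissue gave medians nearer to 0 than the core. Srebf1 in KO mice went the other way, with a log2 fold change of 0.59 in peri-infarct and 0.35 in core tissue against the same contralateral libraries, all 18 libraries fitted. With 18 libraries 1 of 31 members rose in KO mice, Srebf1, and 0 fell, where 4.42% of all genes were called higher and 0.0522% lower. In WT mice 0 were called, where 3.27% of all genes were called higher and 0.00652% lower, although 6 members had an unadjusted p under 0.05 in edgeR and DESeq2 called 2. The medians were -0.25 in KO and -0.28 in WT mice, against 0.041 and 0.0185 over all genes. The libraries did not overlap, with peri-infarct lower, for 18 members in KO mice (12.2% of all genes) and 18 in WT mice (11.3%). With 17 libraries 16 fell and 1 rose in KO mice (7.61% and 13.7% of all genes), and 15 fell and 1 rose in WT mice (5.34% and 14.2%). The count therefore depends on WT core replicate 3, which is no part of this comparison but enters the shared spread. The Srebf1 call with 18 libraries was lost when any KO library, WT contralateral replicate 3 or WT peri-infarct replicate 2 was left out, and in fits of the 2 groups alone 18 members were called in KO and 14 in WT mice.

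The peri-infarct falls were most numerous among the sterol steps. With 17 libraries 8 of 11 squalene and sterol steps fell in both genotypes, against 4 of 7 entry and mevalonate steps in KO mice and 3 of 7 in WT mice, and 1 of 7 fatty acid enzymes in both, Acss2. Msmo1, whose libraries are given above, fell by 0.58 ± 0.078 (adjusted p = 0.000113) in KO and 0.48 ± 0.078 (adjusted p = 0.000433) in WT mice. Hmgcs1 fell by 0.58 ± 0.091 (adjusted p = 0.000362) in KO and 0.53 ± 0.091 (adjusted p = 0.000674) in WT mice. Fdft1 was at 48.2, 53.2 and 52.8 TPM in KO and 46.6, 61.1 and 50.4 TPM in WT peri-infarct libraries, all below the contralateral ones, and fell by 0.59 ± 0.10 (adjusted p = 0.000462) and 0.56 ± 0.10 (adjusted p = 0.000605). Idi1 was at 41.0, 41.0 and 45.7 TPM in KO and 48.7, 55.4 and 48.6 TPM in WT peri-infarct libraries and fell by 0.71 ± 0.11 (adjusted p = 0.000281) and 0.48 ± 0.11 (adjusted p = 0.00527). Srebf2 fell by 0.39 ± 0.085 (adjusted p = 0.00425) in KO and 0.45 ± 0.085 (adjusted p = 0.00154) in WT mice, and Srebf1 rose by 0.52 ± 0.14 (adjusted p = 0.014) in KO and 0.41 ± 0.14 (adjusted p = 0.046) in WT mice. Fatty acid enzymes had a median of -0.061 in KO mice, with 4 of 7 below 0, and of -0.18 in WT mice, with 7 of 7 below 0. Their summed level averaged 1408 ± 137 TPM in KO peri-infarct against 1371 ± 52.6 TPM in KO contralateral tissue (SD, n = 3 each), and ran from 1191 to 1353 TPM in WT peri-infarct against 1362 to 1552 TPM in WT contralateral tissue. In TPM the KO sums overlapped between the regions and the WT sums did not, by a gap from 1353 to 1362 TPM. In TMM-scaled CPM the WT sums overlapped too. There Scd2, the most abundant of these enzymes, was at 2357 in WT peri-infarct replicate 2 against 2165 and 2222 in WT contralateral replicates 2 and 3. Microglia markers were higher here too (6 of 6 in both genotypes with 17 libraries), and 3 of 8 oligodendrocyte markers were higher in KO mice and 0 of 8 in WT mice. Of the excitatory neuron markers 0 of 6 were called, and their sums overlapped between the regions. Of the 6 inhibitory neuron markers 0 in KO and 1 in WT mice were called lower. Their sums did not overlap, at 949 to 1043 TPM in KO peri-infarct against 1353 to 1581 TPM in KO contralateral tissue. In WT tissue the inhibitory sums were 813 to 1057 TPM against 1333 to 1527 TPM in the same order. The part of all these markers was not tested.

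Core against peri-infarct tissue compared the lesion with its border. In KO mice 0 of 31 members were called with 18 libraries, where 0% of all genes were called, although 16 members had an unadjusted p under 0.05 in edgeR and DESeq2 called 5. With 17 libraries 22 fell and 0 rose (15.8% of all genes lower, 24.3% higher), with a median of -0.40, against 0.027 over all genes. The libraries did not overlap, with core lower, for 28 members in normalized counts of the 18 libraries (27% of all genes). Among the 22 were 9 of 11 sterol steps and 6 of 7 fatty acid enzymes, with Msmo1 at -0.60 ± 0.08 (adjusted p = 7.96e-05), Sqle at -0.66 ± 0.088 (adjusted p = 7.96e-05), Scd2 at -0.65 ± 0.09 (adjusted p = 0.000106) and Srebf2 at -0.61 ± 0.086 (adjusted p = 0.000112). Oligodendrocyte markers were lower as well, 8 of 8, with sums of 4228 to 6392 TPM in KO core against 8570.1 to 12079 TPM in KO peri-infarct tissue, as were 3 of 6 excitatory and 2 of 6 inhibitory neuron markers, and the part of these markers was not tested. In WT mice 2 members fell with 18 libraries, where 0.678% of all genes were called lower and 12.3% higher. They were Insig2 (-0.25 ± 0.074, adjusted p = 0.0414) and Stard4 (-0.55 ± 0.17, adjusted p = 0.0483), and neither was called with 17 libraries, at -0.21 ± 0.072 (adjusted p = 0.108) and -0.34 ± 0.14 (adjusted p = 0.179). The count of 2 was also 0 or 1 without any single library of another group, 11 without WT core replicate 1 and 6 without WT core replicate 2, and 0 in the fit of the 2 groups alone. With 17 libraries 0 members were called, where 0.486% of all genes were called lower and 4.88% higher, although 7 members had an unadjusted p under 0.05 in edgeR and DESeq2 called 1.

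KO against WT core asked whether loss of Trem2 altered the pathway in the lesion, and the result turned on WT core replicate 3. With all 18 libraries 0 of 31 members were called, where 0.00652% of all genes were called lower and 0.00652% higher, although 2 members had an unadjusted p under 0.05 in edgeR and DESeq2 called 1. The members' median was -0.05, against -0.008 over all genes. With 17 libraries 10 members were lower in KO core and 0 higher, where 2.06% of all genes were called lower and 0.998% higher, and the median was -0.34, against 0.023 over all genes. The 3 KO core libraries lay below WT core replicates 1 and 2 in TPM for 20 of 31 members and above them for 0. On the scale of the tests, log2 of normalized counts, the same held for 21 members, against 16.5% of all genes lower and 20.3% higher. The count also rested on single libraries among the 17: it was 0 without WT core replicate 1, 4 without WT core replicate 2, 2 without KO core replicate 2 and 6 without KO core replicate 1. Where 1 WT core library remained, it was assumed to vary like the other groups.

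Of the 10 members called with 17 libraries, 7 were squalene and sterol steps: Fdft1, Sqle, Cyp51, Msmo1, Hsd17b7, Sc5d and Dhcr7. The others were Hmgcs1, Srebf2 and Fasn, 1 from each other role group. Msmo1 held 47.5, 56.8 and 57.2 TPM in KO core against 87.6 and 79.5 TPM in WT core replicates 1 and 2 and 26.0 TPM in replicate 3, a change of -0.64 ± 0.088 (adjusted p = 0.00978) with 17 and -0.38 ± 0.20 (adjusted p = 0.456) with 18 libraries. Hmgcs1 held 71.2, 80.9 and 83.3 TPM in KO core against 134 and 122 TPM in WT core replicates 1 and 2 and 31.1 TPM in replicate 3, with -0.69 ± 0.10 (adjusted p = 0.00978) and -0.39 ± 0.25 (adjusted p = 0.525) in the same order of fits. Srebf2 held 41.0, 41.5 and 45.9 TPM in KO core against 63.9 and 65.4 TPM in WT core replicates 1 and 2 and 14.2 TPM in replicate 3, with -0.58 ± 0.095 (adjusted p = 0.0139) and -0.25 ± 0.27 (adjusted p = 0.717). For these genes the KO libraries lay close together, between the 2 similar WT libraries and the third. Sqle changed by -0.52 ± 0.10 (adjusted p = 0.0187) with 17 and -0.16 ± 0.30 (adjusted p = 0.855) with 18 libraries. Dhcr7 had the smallest p with 18 libraries and was at 14.6, 16.5 and 15.7 TPM in KO core against 20.7, 21.3 and 16.5 TPM in WT core, so that all KO libraries lay at or below the lowest WT one. It changed by -0.56 ± 0.11 (adjusted p = 0.225) with 18 and -0.42 ± 0.10 (adjusted p = 0.0389) with 17 libraries. Srebf1, Insig1 and Insig2 were not called, at 0.082 ± 0.15 (adjusted p = 0.808), -0.10 ± 0.18 (adjusted p = 0.788) and 0.053 ± 0.072 (adjusted p = 0.719). Excitatory neuron markers were also lower in KO core with 17 libraries, 3 of 6 called with a median of -0.74, whereas 0 of 6 inhibitory neuron, 0 of 8 oligodendrocyte, 0 of 7 astrocyte and 0 of 6 microglia markers were called. The excitatory markers summed to 1862 to 2582 TPM in KO core against 3551 and 3694 TPM in WT core replicates 1 and 2, and their part in the members' difference was not tested.

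**Figure D5:**
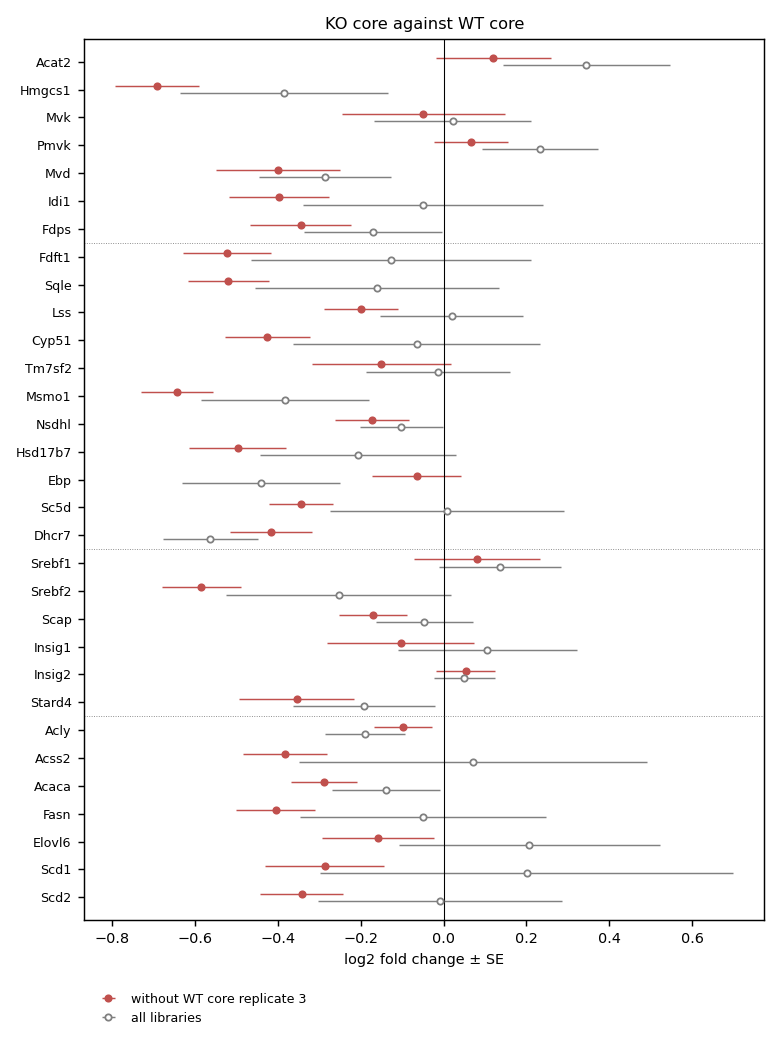
Log2 fold change ± SE of each member (rows, grouped by role between dotted lines) for KO against WT core, without WT core replicate 3 (red) and with all libraries (grey, open). Without that library 27 of 31 members lie left of 0, Msmo1 and Hmgcs1 farthest, and with all libraries the error bars widen and 20 lie left of 0.

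KO and WT mice were also compared outside the core, where no member was called. In contralateral tissue 0 of 31 members were called with 18 libraries (0% of all genes higher, 0.00652% lower) and 0 with 17 (0.013% and 0.0259%), although 0 and 4 had an unadjusted p under 0.05 in edgeR. In peri-infarct tissue 0 were called with 18 libraries (0% higher, 0.00652% lower) and 0 with 17 (0.0389% and 0.0778%), and 1 and 5 members had an unadjusted p under 0.05. Srebf1 had the smallest p there with 18 libraries, 51.7, 48.5 and 49.5 TPM in KO against 33.4, 36.6 and 42.0 TPM in WT peri-infarct tissue, a change of 0.37 ± 0.15 (adjusted p = 1). DESeq2 called 0 members in either region with 18 and with 17 libraries. Averaged over the 3 regions, 0 members were called with 18 libraries (0.0913% of all genes higher, 0.137% lower; 2 at an unadjusted p under 0.05, and 0 by DESeq2). With 17 libraries 9 were lower in KO tissue and 0 higher, where 5.2% of all genes were called lower and 2.26% higher, with a median of -0.13. Hmgcs1 led at -0.38 ± 0.054 (adjusted p = 0.00238), followed by Msmo1 at -0.32 ± 0.047 (adjusted p = 0.00242), Hsd17b7 at -0.36 ± 0.063 (adjusted p = 0.00682) and Srebf2 at -0.28 ± 0.051 (adjusted p = 0.00799). That count was 4 without WT contralateral replicate 3 and 5 without WT core replicate 2.

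Whether the response to the lesion differed between genotypes was tested directly. For core against contralateral tissue, 0 members were called in the difference between KO and WT with 18 libraries and 0 with 17, where 0% of all genes were called in either, and 1 and 13 members had an unadjusted p under 0.05. With 17 libraries 30 of 31 differences were negative, meaning a larger fall or smaller rise in KO mice, with a median of -0.30. The share of negative differences over all genes was not counted. All members rest on the same few libraries, so their shared direction is not independent evidence. Msmo1 had the smallest p, a difference of -0.53 ± 0.12 (adjusted p = 0.355), followed by Sqle at -0.47 ± 0.13 (adjusted p = 0.355). DESeq2 called 0 members there with 18 and 1 with 17 libraries. For peri-infarct against contralateral tissue 0 members were called in either fit, where again 0% of all genes were called, and 0 and 1 members had an unadjusted p under 0.05 and DESeq2 called 0 in both. The greater number of members called in KO than in WT mice with 17 libraries is thus not shown to be a difference between the genotypes.

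Genes around the pathway were counted in the core from lists of other steps, where with 17 libraries 29.6% of all genes were called higher and 27.8% lower in KO mice and 23.6% and 16.6% in WT mice. Of 11 genes of sterol conversion and efflux, among them the sterol-activated LXR receptors and their targets, 9 rose and 1 fell in KO mice and 9 rose and 0 fell in WT mice with 17 libraries, with medians of 1.44 and 1.19. With 18 libraries 8 rose in KO and 9 in WT mice, where 19.7% and 29.1% of all genes were called higher, and 0 fell. With 17 libraries Abca1, the exporter that loads cholesterol onto lipoproteins, rose by 2.91 ± 0.15 (adjusted p = 4.59e-09) in KO and 2.56 ± 0.15 (adjusted p = 7.79e-08) in WT mice, and Npc2, which moves cholesterol out of lysosomes, by 2.06 ± 0.12 (adjusted p = 8.64e-09) and 1.73 ± 0.13 (adjusted p = 1.68e-07). Both were also called with 18 libraries in both genotypes. Cyp46a1, the neuronal enzyme that hydroxylates cholesterol for export, was called with 17 libraries in KO mice alone, at -0.79 ± 0.18 (adjusted p = 0.00148) in KO and -0.32 ± 0.20 (adjusted p = 0.217) in WT mice, and with 18 libraries in neither (adjusted p = 0.474 in KO and 0.356 in WT mice). Of 7 genes of SREBP processing and turnover 2 rose and 0 fell in each genotype with 17 libraries, and 0 in KO and 3 in WT mice rose with 18. The membrane protein Erlin2 changed by 0.23 ± 0.072 (adjusted p = 0.0125) in KO and 0.22 ± 0.08 (adjusted p = 0.0377) in WT mice with 17 libraries, and with 18 its call was lost in KO mice (adjusted p = 0.137). Of 7 genes of isoprenoid and other sterol steps 2 rose and 3 fell in KO and 1 rose and 1 fell in WT mice with 17 libraries, and 1 rose and 1 fell in KO and 3 rose and 2 fell in WT mice with 18. Of 17 genes of fatty acid elongation, desaturation and activation 4 rose and 5 fell in KO and 4 rose and 3 fell in WT mice with 17 libraries, and 2 rose and 1 fell in KO and 3 rose and 1 fell in WT mice with 18. The elongase Elovl1 rose by 1.15 ± 0.10 (adjusted p = 1.86e-07) in KO and 1.01 ± 0.11 (adjusted p = 3.32e-06) in WT mice with 17 libraries and was called with 18 too. Elovl4, the elongase of very long chains in neurons, changed by -0.86 ± 0.089 (adjusted p = 1.07e-06) in KO and -0.65 ± 0.10 (adjusted p = 0.000113) in WT mice with 17 libraries, and neither call held with 18 (adjusted p = 0.298 in KO and 0.11 in WT mice).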

How the data were processed

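RNA-seq of polyadenylated RNA was made with the MGIEasy stLFR kit, per the labels' protocols. Tools named without roles, per the submitters' processing notes, were Subread, Bowtie2 and HISAT2 2.0.4, with the build GRCm39 (mm39). The counting tool and its use of strand are not given in the sources used here. The authors deposited expected counts, which are estimates per gene with totals that differ between libraries, and TPM values for 18922 genes in 18 libraries. Of these genes 3678 (19.4%) held counts that were not whole, so counts were rounded, where whole counts had been assumed when the tests were designed. TPM gave levels and ratios.

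Genes passing the edgeR filter on low counts (15329, or 15432 without WT core replicate 3) were fitted with edgeR 4.0.16 in R 4.3.3 (TMM scaling, quasi-likelihood test, 6 group means, 12 comparisons). Calls had a Benjamini-Hochberg adjusted p under 0.05 over all tested genes, and SEs are the log2 fold change over the root of F. The fit was tested on simulated data with the same dispersion for all genes and no library set apart. That test therefore does not cover the effect of a library such as WT core replicate 3. Members and lists were chosen with earlier results of these data known. Members named by rule were the 4 with the smallest p in a comparison and up to 3 called against the majority. Further members, and genes of other lists, were named outside this rule. Library scaling for non-overlap used log2 CPM with a prior count of 2. Alternatives were RLE factors, no count filter, DESeq2 1.42.0, limma-voom (limma 3.58.1), fits of the compared groups alone, a replicate block and leaving out single libraries. Promoters came from RefSeq on GRCm38.p6, another build than that of the counts, and were matched by gene symbol.

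Replicate numbers recur in every group, and no label says that they mark an animal or a day. Same-numbered libraries deviated together in all 3 pairs only for WT peri-infarct against contralateral tissue (correlations 0.398, 0.436 and 0.386 across genes).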

Additional observations from a re-analysis of the deposited data

How the results depend on the processing

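Of the members' fold changes under the alternatives, 2122 kept direction and side of the threshold, 102 lost and 43 gained a call, and 1 reversed. The reversal was Srebf1 in the difference between genotypes of the peri-infarct response, 0.14 with all libraries and -0.028 without WT contralateral replicate 1 (-0.028 to 0.25 over single libraries left out). It was not called in either. Numbers of members called moved by more than 1.5 times as follows, with 18 libraries unless stated, and the cause was not tested. DESeq2 called 1 for KO against WT core (edgeR 0), 4 for KO and 2 for WT peri-infarct against contralateral (1 and 0), 5 for KO and 5 for WT core against peri-infarct (0 and 2), and with 17 libraries 1 for WT core against peri-infarct and 1 for the core difference (0 each). Fits of the compared groups alone called 30 for KO and 0 for WT core against contralateral (17 and 23), 18 for KO and 14 for WT peri-infarct against contralateral, and 22 for KO and 0 for WT core against peri-infarct. WT core against peri-infarct gave 1 with RLE factors and 0 without the count filter or with limma-voom, and KO peri-infarct against contralateral gave 0 under both of these.

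With the replicate block, WT core against peri-infarct and KO peri-infarct against contralateral gave 0, and with 17 libraries WT core against peri-infarct gave 1 (0 without it). The block changed no other count by over 1.5 times. Apart from WT peri-infarct against contralateral tissue the libraries share only a number, with correlations of -0.451 to 0.417.

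With single libraries left out of 18, the counts ranged from 0 to 10 for KO against WT core, 0 to 9 for the mean over regions, 0 to 17 for KO and 0 to 16 for WT peri-infarct against contralateral, 11 to 30 for KO core against contralateral, and 0 to 22 for KO and 0 to 11 for WT core against peri-infarct. The upper ends came without WT core replicate 3, except for WT core against peri-infarct. Left out of 17, they ranged from 0 to 12 for KO against WT core, 4 to 11 for the mean over regions and 16 to 28 for WT core against contralateral. The log2 difference of the summed level in WT peri-infarct against contralateral tissue was -0.31 in TPM and -0.17 in TMM-scaled CPM.

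With 2 or 3 libraries per group, a p above the threshold does not show that a member kept its level.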

Other observations

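Insig1 and Insig2 hold the same SREBP complex, and their TPM ratio was ordered by region in its means. It averaged 0.892 ± 0.129 in KO core, 1.09 ± 0.143 in KO peri-infarct and 1.42 ± 0.136 in KO contralateral tissue (SD, n = 3 each). In WT tissue it averaged 0.856 ± 0.326 in the core, 1.13 ± 0.155 in peri-infarct and 1.56 ± 0.227 in contralateral tissue. The WT core libraries read 1.21, 0.790 and 0.568 for replicates 1, 2 and 3. Core and peri-infarct libraries overlapped in this ratio in both genotypes. The ratio of Scd1 to Scd2 varied less in KO tissue, at 0.171 ± 0.012 in the core, 0.186 ± 0.017 in peri-infarct and 0.199 ± 0.009 in contralateral tissue. For WT tissue the same ratio was 0.128 ± 0.065 in the core, with 0.053 in replicate 3, 0.176 ± 0.015 in peri-infarct and 0.186 ± 0.014 in contralateral tissue.

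In the WT core library of replicate 3 the members were not lowered alike. As a percentage of the mean TPM of core replicates 1 and 2, Scd1 stood at 6.88% and Acss2 at 9.65%, whereas Acly stood at 71.5%, Dhcr7 at 78.7% and Ebp at 112%. In TMM-scaled CPM Acly was at 204 in that library, against 180 and 174 in core replicates 1 and 2. Dhcr7 was at 31.3 against 24.3 and 24.7 in the same order, so neither was lowered on that scale. These genes were chosen after their values were seen.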
